A study of Mus musculus with 4 samples.

Results

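Endothelial tip cells lead growing vessel sprouts. A list of 10 endothelial tip cell genes was followed here in brain endothelial cells (ECs) that lack the forkhead transcription factor FOXQ1. The list was given by name, with no threshold on a measured value, but earlier results of these data were known when it was chosen. It held *Apln*, *Aplnr*, *Esm1*, *Kcne3*, *Cxcr4*, *Plaur*, *Adm*, *Trp53i11*, *Igfbp3* and *Mcam*. Of the 10, 8 were among the 12693 gene symbols of the deposited table, and all 8 passed the filter on low values, which 12472 genes passed. *Esm1*, which encodes the proteoglycan endocan, and *Kcne3*, a potassium channel subunit, were not among the listed genes and were not analysed here. The table lists only genes with at least 1 read in every sample, so the data give no limit on either gene.

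RNA-seq was compared between wild type (2 samples) and *Foxq1* cKO (2 samples) in CD31-positive ECs sorted from the mouse cerebral cortex at embryonic day 18. All 4 samples were of the C57BL/6 strain. The *Foxq1* cKO animals were FOXQ1fl/fl;Tie2-Cre, carrying floxed *Foxq1* alleles and a Cre recombinase under the *Tie2* promoter, and the methods describe the controls as littermates without Cre. *Tie2*-driven Cre is active in ECs and also in cells of the blood lineage, such as macrophages and microglia, so the deletion need not have been restricted to ECs. No source used here says whether the 2 samples of a group came from separate animals, and the p-values therefore measure only the spread between these samples. Listed genes held between 15827166 and 21466436 reads per sample, and the values are normalized counts, meaning reads divided by 1 size factor per sample. *Foxq1* itself had 353 and 297 normalized counts (419 and 298 reads) in wild type, compared with 5.44 and 32.6 (5 and 32 reads) in *Foxq1* cKO cells. The targeted gene thus matched the labels in all 4 samples, with *Foxq1* cKO cells at 5.84% of the wild-type mean. Its exons overlap those of a gene on the opposite strand, A530084C06Rik, over 66.1% of their length, and reads of the pair cannot be told apart without strand.

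In a sprouting vessel, vascular endothelial growth factor drives 1 cell to the tip, where it extends filopodia, secretes proteases and matrix, and holds its neighbours in the stalk state through Notch signalling. Tip cells express the peptide apelin, whose receptor APLNR is carried by surrounding ECs, and they share a set of guidance, protease and hypoxia-related genes. At embryonic day 18 the mouse cortex is still being vascularized while the blood-brain barrier matures, so that both growing and quiescent ECs can be present in the sort.

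The promoters of *Apln*, *Adm* and *Mcam* are shown because these 3 members were the ones whose wild-type and *Foxq1* cKO values did not overlap. Each runs from 250 bases before to 50 bases after the transcription start on its own strand, from RefSeq on GRCm38.p6, and capitals mark GTTTC on either strand, the FOXQ1 motif that the study names.
*Adm*, chr7:110627407-110627706, plus strand: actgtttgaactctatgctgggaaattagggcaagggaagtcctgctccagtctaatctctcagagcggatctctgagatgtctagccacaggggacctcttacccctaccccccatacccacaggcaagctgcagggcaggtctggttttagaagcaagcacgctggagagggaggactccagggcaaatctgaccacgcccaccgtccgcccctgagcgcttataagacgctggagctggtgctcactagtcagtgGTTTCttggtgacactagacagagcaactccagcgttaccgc
*Apln*, chrX:48034804-48035103, minus strand: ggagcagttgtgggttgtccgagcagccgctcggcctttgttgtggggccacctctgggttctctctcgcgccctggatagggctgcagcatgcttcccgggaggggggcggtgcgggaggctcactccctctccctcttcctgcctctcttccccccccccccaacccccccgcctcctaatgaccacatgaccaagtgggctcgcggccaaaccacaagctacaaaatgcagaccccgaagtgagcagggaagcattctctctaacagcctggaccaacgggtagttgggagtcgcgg
*Mcam*, chr9:44134408-44134707, plus strand: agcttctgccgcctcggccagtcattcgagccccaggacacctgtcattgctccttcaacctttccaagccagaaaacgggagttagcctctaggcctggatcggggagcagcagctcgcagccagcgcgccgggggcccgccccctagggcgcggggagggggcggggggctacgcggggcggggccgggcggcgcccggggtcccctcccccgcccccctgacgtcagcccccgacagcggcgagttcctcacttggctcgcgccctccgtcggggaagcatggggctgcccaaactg
*Adm* held GTTTC once, close to its transcription start, whereas the *Apln* and *Mcam* windows held no copy. Among the 7 measured members with a promoter entry, 4 held the motif: *Adm*, *Plaur* and *Trp53i11* once each and *Cxcr4* 3 times. The motif is short, and 45.0% of 32851 promoters of this length held it. The core of the site bound by hypoxia-inducible factors is written ACGTG or GCGTG, and both were searched on both strands. ACGTG was in none of the 7 windows and in 19.6% of all promoters. GCGTG was in 4 of the 7, with 2 copies each in *Adm* and *Igfbp3* and 1 each in *Cxcr4* and *Trp53i11*, and in 32.4% of all promoters. These matches describe the letters of the windows only. *Aplnr* was not matched to a promoter entry.

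The members were compared between the genotypes to ask whether the transcripts of this list differ in the absence of FOXQ1. *Apln*, *Adm* and *Mcam* had both *Foxq1* cKO values below the lower wild-type value, with means between 69.4% and 79.4% of wild type. *Trp53i11* was at 81.9% of wild type with overlapping groups, and *Aplnr*, *Igfbp3* and *Plaur* lay between 91.1% and 99.3%. *Cxcr4* was the only measured member with a higher mean in *Foxq1* cKO cells, at 129%, again with overlapping groups. No member passed limma at a Benjamini-Hochberg adjusted p under 0.05, and none passed at an unadjusted p under 0.05. Among all 12472 genes tested, 0% passed after adjustment, 2.17% were higher and 3.05% were lower at the unadjusted threshold. On the recovered reads, edgeR called none of the members or other genes after adjustment and 614 genes unadjusted, whereas DESeq2 called 59 genes after adjustment, none of them members. Groups that do not overlap were common in this design: 18% of all genes were lower without overlap and 18% were higher, against 3 and 0 of the 8 members. With 2 samples against 2, an exact two-sided permutation test cannot give a p below 0.333.

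**Figure D1:**
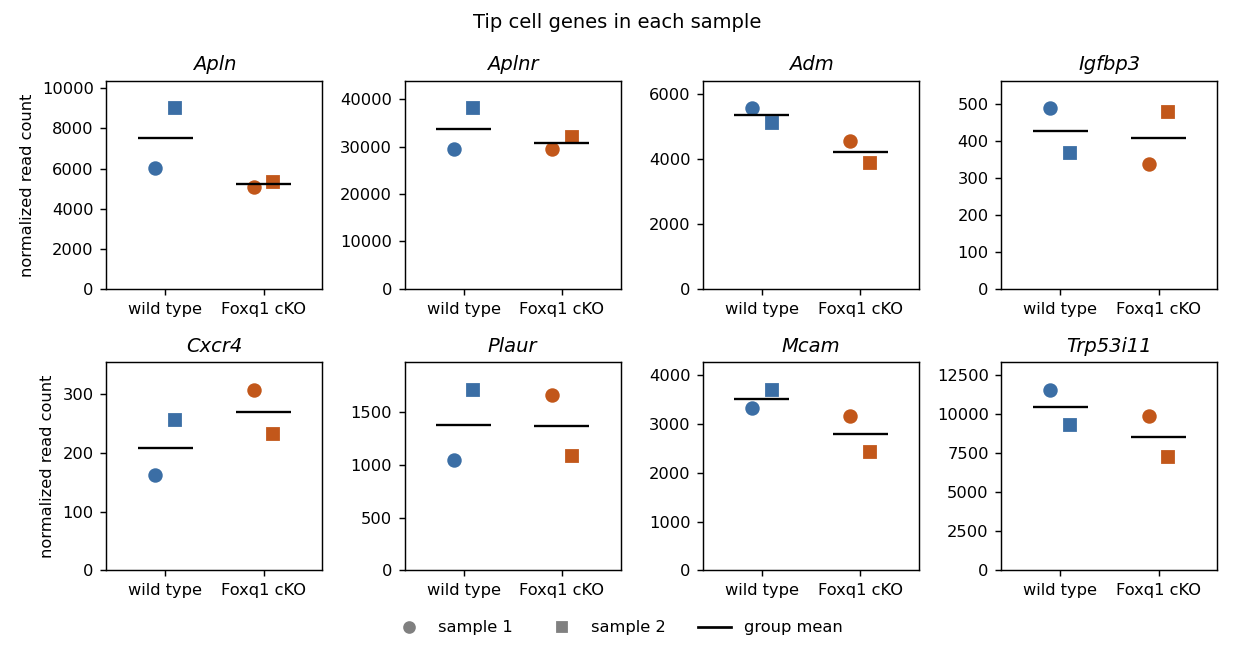
Normalized read counts of the 8 measured tip cell genes in each sample, on linear axes that start at 0, with circles for sample 1, squares for sample 2 and lines for group means. The *Foxq1* cKO samples lie below both wild-type samples for *Apln*, *Adm* and *Mcam*, and the groups overlap for the other 5 genes.

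Apelin, encoded by *Apln*, is the peptide ligand of the tip cell and a widely used marker of it. *Apln* was at 6041 and 9011 normalized counts in wild type and at 5103 and 5350 in *Foxq1* cKO cells. Wild-type sample 2 stood highest, the *Foxq1* cKO samples lay within 1.05 times of each other, and wild-type sample 1 was the nearest neighbour of the *Foxq1* cKO group. The means were 7526 ± 2101 and 5226 ± 175 (SD, n = 2 each), a log2 difference of -0.50 (SE 0.218, 95% interval -1.03 to 0.035, limma adjusted p = 0.857). This interval reaches from 49.0% to 102% of the wild-type level. The size rested on wild-type sample 2: without it the log2 difference was -0.21, and without wild-type sample 1 it was -0.79.

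*Aplnr* encodes the G protein-coupled receptor of apelin. Its values were 29495 and 38079 normalized counts in wild type and at 29564 and 32017 in *Foxq1* cKO cells. Both *Foxq1* cKO values lay between the wild-type values. The log2 difference was -0.12 (SE 0.145, 95% interval -0.48 to 0.23), and the limma adjusted p was 0.902. Wild-type sample 2 had the highest value for the ligand and for its receptor.

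Adrenomedullin, the product of *Adm*, is a vasoactive and proangiogenic peptide whose transcript is known to be induced by low oxygen. *Adm* was at 5551 and 5109 normalized counts in wild type and at 4554 and 3877 in *Foxq1* cKO samples. The *Foxq1* cKO samples were the lowest of the 4, although they lay further apart from each other than the wild-type samples did. The means were 5330.3 ± 312 and 4215 ± 479 (SD, n = 2 each), or 79.1% of wild type. The log2 difference was -0.34 (SE 0.170, 95% interval -0.76 to 0.074, limma adjusted p = 0.857). Its receptor is formed by CALCRL with an accessory protein, RAMP2 or RAMP3. *Calcrl* overlapped between the groups, at 1889 and 1805 normalized counts in wild type and at 2386 and 1730 in *Foxq1* cKO samples. *Ramp2* was at 7330 and 6043 in wild type and at 7949 and 8000 in *Foxq1* cKO cells, higher without overlap but with a limma p of 0.146 before adjustment. The ligand and this receptor part thus had mean differences of opposite sign, neither of which passed the test.

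CXCR4 is the chemokine receptor that guides ECs along CXCL12. *Cxcr4* was low, at 162 and 255 normalized counts in wild type and at 307.0 and 231 in *Foxq1* cKO samples, from 192, 256, 282 and 227 recovered reads. *Foxq1* cKO sample 1 was the highest and wild-type sample 1 the lowest, while the samples numbered 2 differed little. The interval was the widest of the members, with a log2 difference of 0.39 (SE 0.579, 95% interval -1.02 to 1.80, limma adjusted p = 0.924). The ligand *Cxcl12* was far more abundant, at 14668 and 11503 normalized counts in wild type and at 15309 and 18472 in *Foxq1* cKO cells. It was higher without overlap, and its log2 difference was 0.37 with an unadjusted limma p of 0.0697. *Ackr3*, the scavenging receptor for CXCL12, ranged from 64.1 to 193 normalized counts, with both extremes in the *Foxq1* cKO group.

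*Plaur* encodes the urokinase receptor, which concentrates plasminogen activation at the cell surface. Its values were 1048 and 1712 normalized counts in wild type and at 1660.2 and 1079 in *Foxq1* cKO samples. A high and a low sample occurred in each group, at nearly the same levels. The log2 difference was -0.00097, but its 95% interval of -0.88 to 0.88 includes both a near doubling and a near halving. *Plat*, the tissue plasminogen activator, overlapped between the groups at 6169 to 8988 normalized counts.

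IGFBP3 binds insulin-like growth factors (IGFs) outside the cell. *Igfbp3* was at 489 and 367 normalized counts in wild type and at 337 and 479 in *Foxq1* cKO cells, so that the groups covered almost the same range. The log2 difference was -0.074 (SE 0.454, 95% interval -1.18 to 1.03). In the IGF axis, the receptor *Igf1r* was at 7704 and 7739 normalized counts in wild type and at 5980 and 4705 in *Foxq1* cKO samples, a log2 difference of -0.54 with an unadjusted limma p of 0.0192 and an adjusted p of 0.857. The IGFs themselves were sparse, at 83.8 to 128 normalized counts for *Igf1* and 36.2 to 82.7 for *Igf2*. *Igfbp2* was lower without overlap, at 58.0% of wild type, while *Igfbp4*, *Igfbp5* and *Igfbp7* overlapped.

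*Mcam* encodes the adhesion molecule CD146, which binds laminin 411 and is carried by ECs and by pericytes. *Mcam* was at 3328 and 3705 normalized counts in wild type and at 3155 and 2431 in *Foxq1* cKO samples. *Foxq1* cKO sample 1 lay close under wild-type sample 1, and *Foxq1* cKO sample 2 stood clearly lowest. The log2 difference was -0.34 (SE 0.210, 95% interval -0.86 to 0.17, limma adjusted p = 0.857), with means of 3516 ± 267 and 2793 ± 512 (SD, n = 2 each). Its exons share 17 bp with the antisense gene Gm10687, which is 0.507% of their length. *Lama4*, the laminin chain of its ligand, was at 25693 and 27035 normalized counts in wild type and at 17293 and 20542 in *Foxq1* cKO cells. Its log2 difference was -0.48, with an unadjusted limma p of 0.0084 and an adjusted p of 0.857.

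*Trp53i11* is a p53-inducible gene that recurs among tip cell markers. It was at 11577 and 9332 normalized counts in wild type and at 9877 and 7255 in *Foxq1* cKO samples. Wild-type sample 2 fell below *Foxq1* cKO sample 1, so the groups overlapped, although *Foxq1* cKO sample 2 was the lowest. The log2 difference was -0.30 (SE 0.200, 95% interval -0.78 to 0.19, limma adjusted p = 0.858).

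Read together, 7 of the 8 members had a log2 difference below 0, compared with 49.3% of all genes tested, but *Aplnr*, *Igfbp3* and *Plaur* changed sign under scaling to endothelial markers, and *Plaur* also under quantile normalization. The median log2 difference of the members was -0.21, against 0.0086 over all genes. The median SE of the members was 0.214 against 0.496 over all genes, although the SE of *Cxcr4* was 0.579. The extremes were not held by 1 sample. *Foxq1* cKO sample 2 had the lowest value for *Adm*, *Trp53i11* and *Mcam*, *Foxq1* cKO sample 1 for *Apln* and *Igfbp3*, and wild-type sample 1 for *Aplnr*, *Cxcr4* and *Plaur*. Wild-type sample 2 was highest for *Apln*, *Aplnr*, *Plaur* and *Mcam*.

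**Figure D2:**
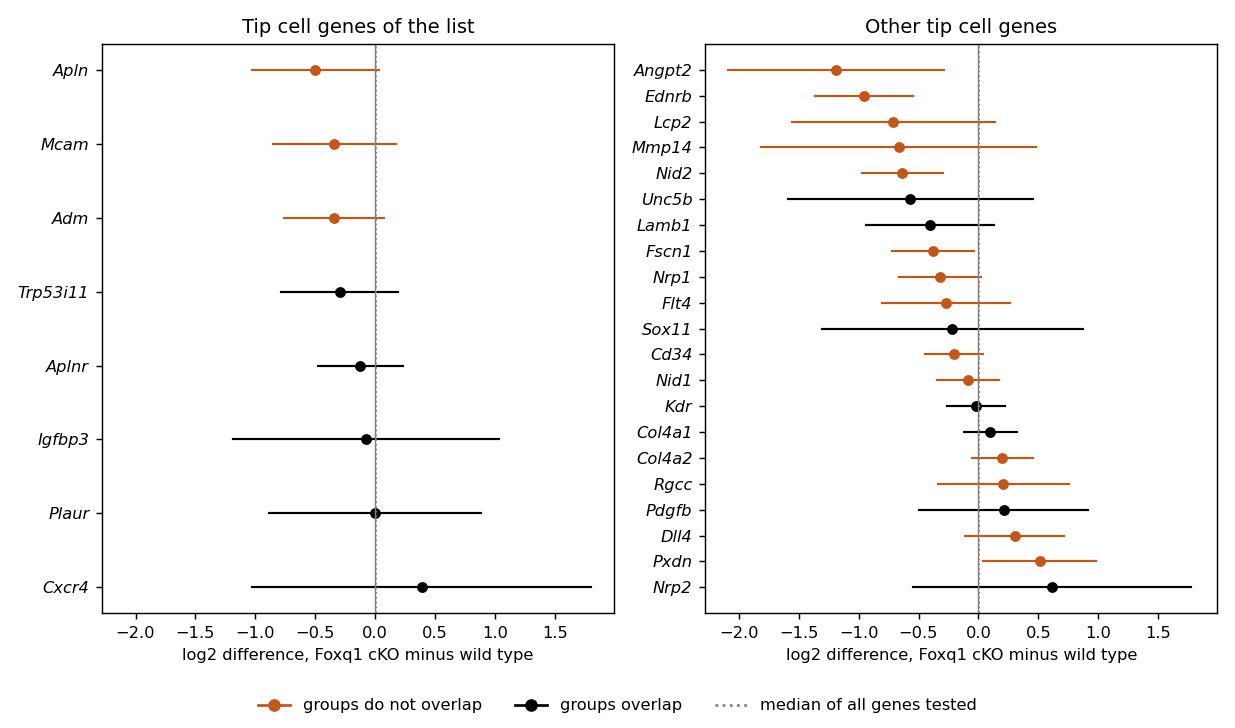
Log2 differences (*Foxq1* cKO minus wild type) with 95% limma intervals for the 8 measured members and for 21 other tip cell genes, coloured where the groups do not overlap. The intervals of all 8 members include 0, and among the other genes those of *Angpt2*, *Ednrb*, *Nid2* and *Fscn1* lie below 0 and that of *Pxdn* above 0.

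Per kilobase of exon, the full span of levels across the members was wider than the difference of any of them between genotypes. Some neighbours in level lay closer, at ratios of 1.01 (*Igfbp3* to *Cxcr4*) and 1.14 (*Adm* to *Trp53i11*). *Aplnr* led at 8729 ± 1091 normalized counts per kb (SD over 4 samples), the 99.7th percentile of the listed genes. *Adm* (2948), *Trp53i11* (2577) and *Apln* (2025 normalized counts per kb) followed, and the sample ranges of neighbours in this order overlapped. The receptor was thus the most abundant of the measured members per length, above its own ligand in every sample. *Mcam* at 942 and *Plaur* at 525 normalized counts per kb came next, each apart from its neighbours in all 4 samples. *Igfbp3* at 134 and *Cxcr4* at 132 normalized counts per kb lay near the middle of the listed genes, at the 56.8th and 56.5th percentiles, and overlapped each other. Exon lengths were taken from a GRCm38 annotation and not from the build of the files.

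**Figure D3:**
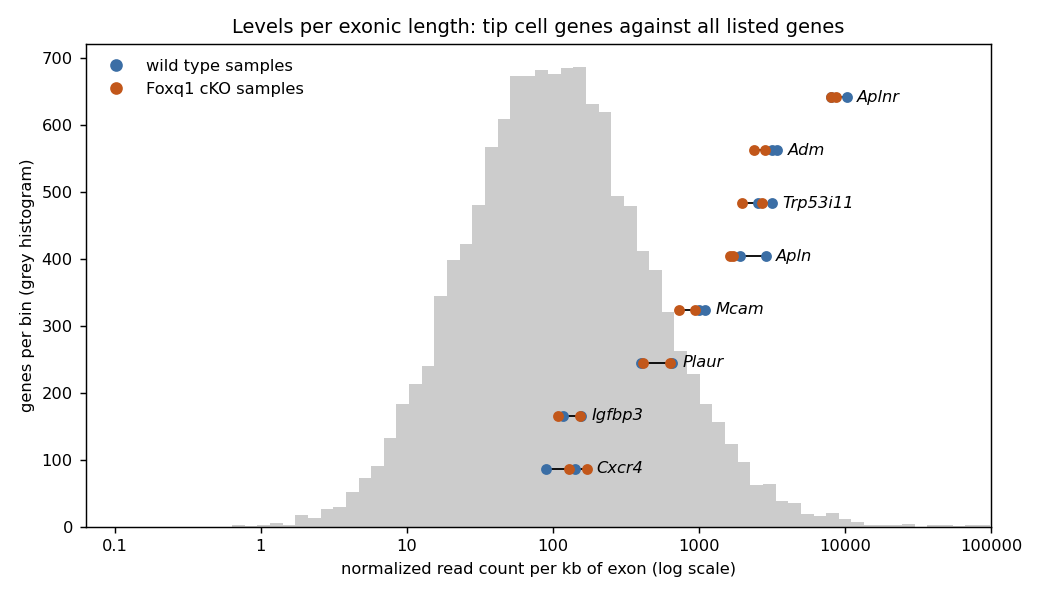
Level of each member in each sample in normalized read counts per kb of exon on a log axis, over a grey histogram of the mean level of all listed genes. *Aplnr* lies at the 99.7th percentile and clear of the other members, whereas *Igfbp3* and *Cxcr4* sit near the middle of the distribution.

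Among 22 other genes from tip cell studies, 21 were listed. At an unadjusted limma p under 0.05, 4 of them were lower and 1 was higher, none after adjustment. Over all genes tested, 3.05% were lower and 2.17% were higher at that threshold. Without regard to the test, 10 of the 21 were lower without overlap, 4 were higher and 7 overlapped, with a median log2 difference of -0.22. Without overlap, 18% of all genes tested were lower and 18% were higher. *Ednrb*, the endothelin B receptor, was at 5215 and 5013 normalized counts in wild type and at 2662 and 2616 in *Foxq1* cKO cells (limma adjusted p = 0.857). It was the only gene of the 21 that DESeq2 called after adjustment, with an adjusted p of 0.0051. Bulk samples do not show which cells carried this transcript. Summed radial glia and astrocyte markers were also lower, at 14378 to 14912 normalized counts in *Foxq1* cKO samples against 17688 to 18912 in wild type. The part of other cells in the level of *Ednrb* was not tested. *Angpt2*, the angiopoietin that destabilizes vessels, was at 1823 and 1086 in wild type and at 544 and 701 in *Foxq1* cKO samples. The basement membrane gene *Nid2* was at 64.2% and *Fscn1*, the actin bundler of filopodia, at 77.0% of wild type. *Pxdn*, which crosslinks collagen IV, was the gene on the higher side, at 142%. *Col4a1*, *Col4a2* and *Cd34*, the most abundant of the list, were at 107%, 115% and 86.9% of wild type. The receptor *Kdr*, which receives the sprouting signal, was at 98.9% of wild type with a log2 difference of -0.018, and the Notch ligand *Dll4* was at 123% without overlap and with a limma p of 0.124 before adjustment.

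Genes of the stalk and of the quiescent phalanx were described in the same way. Of 12 such genes 10 were listed, with a median log2 difference of -0.29, 5 lower without overlap, 0 higher and 5 overlapping. The shares over all genes tested were 18% lower and 18% higher without overlap. *Vwf*, von Willebrand factor, and *Flt1*, the decoy receptor for vascular endothelial growth factor, were lower at an unadjusted limma p under 0.05, at 30.6% and 70.4% of wild type. Over all genes tested, 3.05% were lower and 2.17% were higher at that threshold. None of the 10 passed limma after adjustment, whereas DESeq2 called only *Vwf*, with an adjusted p of 5.3e-13. *Tie1* and *Robo4*, the other abundant genes of the list, were at 81.7% and 102%. Of 23 receptors, ligands and partners of the members' products, 20 were listed, with a median log2 difference of -0.21. *Igf1r* and *Lama4* were lower at the unadjusted threshold, and no partner was higher at that threshold. None of the 20 passed adjustment in limma or in DESeq2. Without regard to the test, 5 partners were lower without overlap, 3 were higher and 12 overlapped. *Vtn*, vitronectin, which the urokinase receptor binds, was at 98.6% of wild type.

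The samples also differed in the markers of the cells they held, and fewer cells of a type and less RNA per cell cannot be told apart in bulk samples. *Pecam1*, which encodes the sorted antigen CD31, and the other endothelial markers were present in all samples. The sorted samples also held abundant pericyte transcripts. Across samples the pericyte marker *Rgs5* was at 89164 to 93044 normalized counts, and *Pecam1* was at 11143 to 14775. Of 9 endothelial markers, 7 were lower without overlap and 1 was higher, against 18% and 18% of all genes tested. Their summed level was 292405 to 324493 normalized counts in wild type and 253559 to 284657 in *Foxq1* cKO cells. Relative to the geometric mean of these 9 markers, the groups overlapped for all 8 members. *Apln* was at 41.4% and 68.5% of that mean in wild type and at 44.2% and 42.7% in *Foxq1* cKO samples. *Adm* was at 38.1% and 38.9% in wild type and at 39.5% and 30.9% in *Foxq1* cKO samples, and *Mcam* at 22.8% and 28.2% against 27.3% and 19.4%. Centred on these markers, the log2 differences were still below 0, at -0.29 for *Apln*, -0.14 for *Adm* and -0.14 for *Mcam*, compared with -0.50, -0.34 and -0.34 before centring. Within wild type the geometric mean of the markers was higher in sample 1 (14575 against 13147 normalized counts). *Adm*, *Trp53i11* and *Igfbp3* were also higher in sample 1, whereas *Apln*, *Aplnr*, *Cxcr4*, *Plaur* and *Mcam* were higher in sample 2. The part of the marker difference in the levels of the members was not tested.

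Microglia and macrophages can carry *Cxcr4*, *Plaur* and *Adm*. The 9 markers of these cells were all listed, and their summed level was 9768 to 12056 normalized counts in wild type and at 7024 to 7641 in *Foxq1* cKO samples, with 4 markers lower without overlap and 1 higher. Pericytes carry *Mcam*, and the summed level of 6 listed pericyte and smooth muscle markers overlapped, at 148715 to 150882 in wild type and at 142236 to 154457 in *Foxq1* cKO samples, with *Acta2*, *Myh11* and *Tagln* not listed. Radial glia and astrocyte markers were at 17688 to 18912 normalized counts in wild type and at 14378 to 14912 in *Foxq1* cKO samples. Of these 7 markers, 3 were lower without overlap. At an unadjusted limma p under 0.05, only *Csf1r* of the microglia and macrophage markers and only *Gfap* of the radial glia and astrocyte markers differed. They were at 55.8% and 43.9% of wild type (limma adjusted p = 0.857 for each). At that unadjusted threshold 3.05% of all genes tested were lower and 2.17% were higher. As given above, 18% of all genes tested were lower without overlap and 18% were higher. Neuronal, oligodendrocyte, fibroblast and erythroid sums overlapped between the groups. The part of these cells in the levels of the members was not tested.

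**Figure D4:**
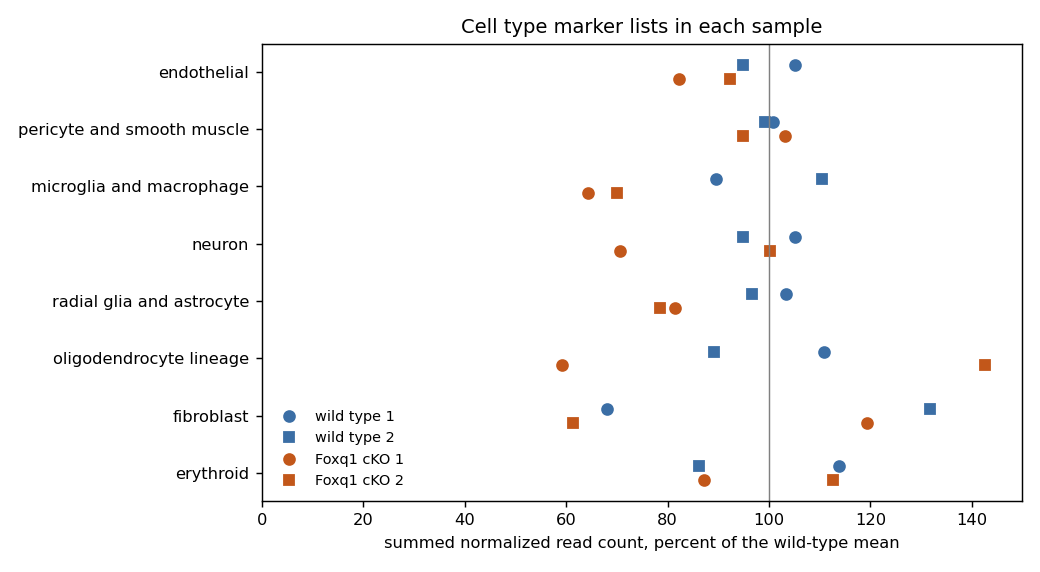
Summed normalized read counts of the markers of each cell type in each sample, as a percent of the wild-type mean. The *Foxq1* cKO samples lie below both wild-type samples for endothelial, microglial and radial glial markers, and the groups overlap for the other 5 lists.

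**Figure D5:**
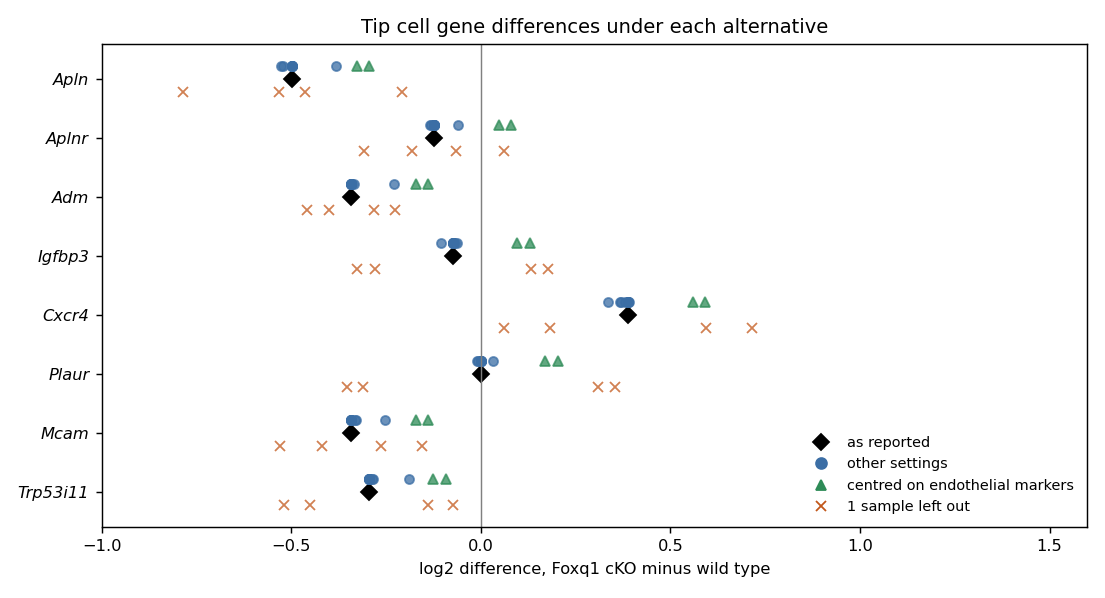
Log2 differences of the 8 measured members as reported (diamonds), under other settings (circles), after centring on endothelial markers (triangles) and with 1 sample left out (crosses). *Apln*, *Adm*, *Mcam* and *Trp53i11* stay below 0 and *Cxcr4* above 0 in each, whereas *Aplnr*, *Igfbp3* and *Plaur* lie on both sides of 0.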

How the data were processed

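RNA-seq of CD31-sorted cortical ECs covered 4 samples, 2 per genotype, grouped by the sample labels. The authors deposited 1 table with a normalized signal per gene. Its values are reads over a size factor per sample, since 100% of values were whole multiples of 1 step per sample within 0.01 of a step. The submitters' processing notes name Bowtie2 2.2.3, TopHat2 2.0.12, HTSeq 0.6.0 and mm9, with no order or strand setting. Repeated lines were reduced to 12693 symbols.

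Limma 3.58.1 (lmFit, eBayes with a trend, R 4.3.3) was run on log2 of the value plus 1 for the 12472 genes whose mean was 10 or more, with Benjamini-Hochberg adjustment over all of them. Fold changes on this scale understate low genes. The recovered reads were tested with edgeR 4.0.16 and DESeq2 1.42.0. The script was tested on simulated data. The members, gene lists and marker lists were chosen with earlier results of these data known. Named genes were the members, *Foxq1*, the genes of the lists without overlap and with an unadjusted p under 0.05, up to 3 genes of each list with the highest mean, and partners of the members described by role. Of these, the partners described by role and *Kdr* and *Dll4* were chosen after their values were seen. Exon lengths came from GENCODE on GRCm38 and promoters from RefSeq, and no coordinates of the files were used. Reads without molecular identifiers are not independent molecules. A partner gene of the list is not reported here.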

Additional observations from a re-analysis of the deposited data

How the results depend on the processing

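No member passed an adjusted p under 0.05 in any alternative, and the lowest was 0.468, for *Trp53i11*. Over 16 alternatives the log2 difference ranged from -0.79 to -0.21 for *Apln*, -0.46 to -0.14 for *Adm*, -0.53 to -0.14 for *Mcam*, -0.52 to -0.074 for *Trp53i11* and 0.061 to 0.72 for *Cxcr4*. At an unadjusted p under 0.05, DESeq2 and the replicate block each counted 1 of the 8 members, *Apln*, with p of 0.0246 and 0.0339. At that threshold DESeq2 counted 804 of all genes. Without wild-type replicate 1 the log2 difference of *Apln* was -0.79. Labels give both groups the numbers 1 and 2, and samples sharing a number did not deviate together (correlation 0.032). This single correlation cannot show whether those samples share a litter or a batch. With the replicate block 693 genes had an unadjusted p under 0.05, against 651 without it, and 0 passed adjustment in both. DESeq2 called 59 genes against 0 in limma, among them *Foxq1* (log2 -4.09), *Ednrb* (-0.95) and *Vwf* (-1.71), and the cause was not tested.

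Centring on 9 endothelial markers, or on 6 without *Tie1*, *Tek* and *Flt1*, was chosen after seeing the data. It moved the median of all genes to 0.21 and 0.18, and the members lower without overlap from 3 to 0 in both. With 9 and 6 markers the log2 differences of these 3 stayed below 0, at -0.29 and -0.33 for *Apln*, -0.14 and -0.17 for *Adm*, and -0.14 and -0.17 for *Mcam*. With 9 and 6 markers the sign reversed for *Aplnr* (0.080 and 0.047), *Plaur* (0.20 and 0.17), *Igfbp3* (0.13 and 0.096) and *Vtn* (0.18 and 0.14), and with 9 for *Cd34* (0.0021). Quantile normalization reversed *Plaur* (0.032) and *Vtn* (0.035) and left 2 members lower without overlap.

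With each sample left out in turn, each lone sample being assumed to vary like the other group, genes at an unadjusted p under 0.05 numbered 276 (without *Foxq1* cKO replicate 1) to 1569 (without wild-type replicate 2). The log2 difference spanned -0.31 to 0.061 for *Aplnr*, -0.35 to 0.35 for *Plaur*, -0.33 to 0.18 for *Igfbp3*, -0.12 to 0.19 for *Robo4* and -0.16 to 0.11 for *Vtn*, and members at an unadjusted p under 0.05 numbered 0 to 1. With 2 samples a group, only large differences could be seen, and low counts such as those of *Cxcr4* carry wide intervals.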
